A study of Mus musculus with 12 samples.

Results

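The natriuretic peptide and cardiac stress genes described here are Nppa, Nppb, Myh6, Myh7, Acta1, Ankrd1 and Xirp2. They were taken by name from the deposited table, where they are 7 of 53465 genes, and all 7 were among the 16101 genes that passed the filter on low counts. The libraries came from 12 mouse hearts in 4 groups of 3. The A17fl/fl + NS and A17fl/fl + DOX groups carried a floxed Adam17 gene and were given saline (NS, normal saline) or the anthracycline doxorubicin (DOX), a cancer drug. The A17α-MHCKO + NS and A17α-MHCKO + DOX groups were littermates that also carried an α-MHC-Cre transgene, which excises exon 2 of Adam17 in cardiomyocytes. Doxorubicin was given intraperitoneally in 4 injections of 5 mg/kg up to day 21, 20 mg/kg in total, the saline groups received the same volume of saline, and the study's methods place euthanasia 4 weeks after the last injection. The mice were males of 8 weeks when treatment began, and the methods give C57BL/6J as the background of the floxed line. The α-MHC promoter that drives Cre is the promoter of Myh6, so the transgene acts in cardiomyocytes and the other cells of the heart keep the floxed gene. The labels give heart as the tissue, and the paper describes the sequenced tissue as left ventricle.

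These genes are the classic readouts of a strained cardiomyocyte. Nppa encodes atrial natriuretic peptide and Nppb encodes B-type natriuretic peptide, hormones that cardiomyocytes release when the wall is stretched and that lower blood volume and pressure through the receptor encoded by Npr1. In the healthy adult mouse Nppa is made mainly in the atria, and the ventricle takes it up again under load. Myh6 encodes the fast α-myosin heavy chain of the adult mouse ventricle and Myh7 the slow β-myosin heavy chain of the fetal ventricle, and a shift from the former to the latter is a long-known sign of pressure overload and heart failure in rodents. Acta1 encodes skeletal α-actin, which the fetal and the hypertrophied heart express beside cardiac actin. Ankrd1 encodes a stretch-responsive ankyrin repeat protein that binds titin and also acts in the nucleus, and Xirp2 encodes an actin-binding Xin repeat protein of the intercalated disc.

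The peptide genes and the myosin genes form neighbouring pairs, and their promoters are shown to describe the genes. A link between these sequences and the levels in the hearts was not tested. In GENCODE M21, on build GRCm38, Nppb lies on chromosome 4 from 147985788 to 147987205 and Nppa from 148000722 to 148002079 on the same strand, 13517 bases further on. Myh6 lies on chromosome 14 from 54941921 to 54966927 and Myh7 from 54970684 to 54994626, both on the minus strand and 3757 bases apart. Acta1 lies on chromosome 8 from 123891769 to 123894751 and Ankrd1 on chromosome 19 from 36111961 to 36120099, both on the minus strand, and Xirp2 on chromosome 2 from 67446002 to 67526614 on the plus strand. The submitters' processing notes name GRCm39, so these positions describe the genes and were not used to count reads. The lines below give RefSeq promoter windows of 300 bases on build GRCm38.p6, read along the gene's strand. Each runs from 250 bases before the RefSeq start to 50 bases after it. They lie at chr4:147985650-147985949 and chr4:148000472-148000771 on the plus strand and chr14:54966558-54966857 and chr14:54994577-54994876 on the minus strand. For Nppa and Myh7 the RefSeq start is that of the GENCODE gene, and for Nppb and Myh6 it lies inside the GENCODE gene. Capitals mark matches, on either strand, to the TATA box TATAAA, the M-CAT element CATTCC bound by TEAD factors, the GATA site AGATAA, the NKX2-5 site CACTT and the CArG box bound by SRF.
Nppb: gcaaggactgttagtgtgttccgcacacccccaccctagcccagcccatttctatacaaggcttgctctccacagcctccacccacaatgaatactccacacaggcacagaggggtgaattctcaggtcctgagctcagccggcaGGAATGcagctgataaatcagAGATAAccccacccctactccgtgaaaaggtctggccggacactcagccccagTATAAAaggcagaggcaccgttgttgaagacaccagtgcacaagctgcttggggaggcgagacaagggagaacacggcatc
Nppa: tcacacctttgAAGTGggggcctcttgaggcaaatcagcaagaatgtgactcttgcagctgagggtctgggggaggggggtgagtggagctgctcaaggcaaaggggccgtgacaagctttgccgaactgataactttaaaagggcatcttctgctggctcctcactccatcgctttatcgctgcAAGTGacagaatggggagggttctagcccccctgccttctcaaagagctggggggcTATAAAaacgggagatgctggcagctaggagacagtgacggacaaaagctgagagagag
Myh6: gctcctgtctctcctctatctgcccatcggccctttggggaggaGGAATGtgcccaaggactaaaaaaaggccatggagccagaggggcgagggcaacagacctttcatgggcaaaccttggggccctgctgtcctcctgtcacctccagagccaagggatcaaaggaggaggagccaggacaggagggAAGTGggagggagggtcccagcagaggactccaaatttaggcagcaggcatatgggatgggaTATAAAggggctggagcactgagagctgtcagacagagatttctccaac
Myh7: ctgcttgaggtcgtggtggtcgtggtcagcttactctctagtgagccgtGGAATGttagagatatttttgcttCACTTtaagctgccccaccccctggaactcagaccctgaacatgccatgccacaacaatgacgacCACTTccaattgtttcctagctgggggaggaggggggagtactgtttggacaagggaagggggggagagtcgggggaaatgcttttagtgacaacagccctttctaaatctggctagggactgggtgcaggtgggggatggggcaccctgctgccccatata

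Nppb held an M-CAT element, a GATA site and a TATA box, their first bases at -105, -84 and -31 from its start, and its downstream neighbour Nppa held a TATA box and NKX2-5 sites. Myh6 held a TATA box, an M-CAT element and an NKX2-5 site, whereas Myh7 held an M-CAT element and NKX2-5 sites and no TATAAA in this window. The TATAAA matches of Nppa and Myh6 began at -9 and 2 from their RefSeq starts, against -31 for Nppb. No matches overlap in these windows. Another RefSeq window of Myh7, not printed, held an NKX2-5 site and no M-CAT element. Among 32851 RefSeq promoter windows of the same length, 13.6% held the TATA box, 14.7% the M-CAT element, 11.2% the GATA site, 46.4% the NKX2-5 site and 1.63% the CArG box. Of the 7 genes, 5 held the M-CAT element in at least 1 window and only Acta1, whose promoter is not printed, held the CArG box. These are matches of letters, and binding was not measured.

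Library totals lay between 15950717 and 21725076 fragments per library, and the least covered of the 7 genes in any library, Nppb in A17α-MHCKO + NS replicate 1, still had 1421 fragments. Values are CPM, counts scaled to library size with TMM factors, unless FPKM, which also divides by gene length, is named. Adam17, the targeted gene, was at 43.6 to 70.9 CPM in A17fl/fl + NS, 48.1 to 53.2 in A17fl/fl + DOX, 34.2 to 35.3 in A17α-MHCKO + NS and 27.9 to 36.8 in A17α-MHCKO + DOX, so every knockout heart was below every floxed heart, although reads from its undeleted exons and from cells without Cre are counted too. A17fl/fl + NS replicate 1 stood apart from the other 11 libraries, with a mean correlation of 0.900 to them against 0.948 to 0.966 for the rest. Its summed neutrophil marker level was 2211 CPM, against 5.21 to 65.0 CPM in the rest. Results of the 7 genes that rest on this library are given with and without it. The further lists have some counts without it, and the fold changes of single list genes are given only with it. A17fl/fl + NS replicates 1 and 3 had almost no atrial transcripts, with summed levels of Sln, Myl4, Myl7 and Bmp10 of 1.56 and 1.75 CPM against 326 to 3072 in the other 10 libraries, which thus held abundant atrial transcripts although left ventricle was described. The ventricular cardiomyocyte markers summed to 17570 to 34170 CPM over the 12. Knockout hearts had sums of 23950 to 29830 CPM after normal saline and 29470 to 34170 CPM after doxorubicin for ventricular cardiomyocytes, 1464 to 2008 and 1202 to 1362 CPM for fibroblasts, and 1254 to 2337 and 326 to 918 CPM for atrial cardiomyocytes. The ventricular ranges overlapped slightly and the fibroblast and atrial ranges did not. Other markers summed over 12 hearts to 192 to 616 CPM for smooth muscle, 695 to 1050 for endothelium, 518 to 3621 for red cells, 0.564 to 98.9 for adipocytes and 3.78 to 105 for mesothelium, and in A17fl/fl + NS against the other groups to 1167 to 4752 and 1202 to 2008 for fibroblasts and 228 to 532 and 228 to 318 for macrophages.

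Per unit of length the 7 genes covered a wide range. Mean FPKM over the 12 hearts was 3009 for Nppa, 1613 for Myh6, 679 for Ankrd1, 353 for Nppb, 213 for Acta1, 88.9 for Myh7 and 17.5 for Xirp2, which gave Nppa rank 24 and Myh6 rank 36 among all genes of the table. The ranges of neighbours in that order overlapped, except that the highest Xirp2 value, 23.1 FPKM, was below the lowest Myh7 value, 24.8 FPKM. Together the 7 genes took 0.957% of all counts in A17fl/fl + NS replicate 1 and up to 2.27% in A17fl/fl + DOX replicate 3. The peptides and Myh7 also varied the most between mice of the same group. The within-group standard deviation of log2 CPM was 1.10 for Nppa, 0.949 for Nppb and 0.771 for Myh7, at the 96.3, 94.2 and 90.1 percentiles of all tested genes, whose median was 0.308. It was 0.639 for Acta1, 0.523 for Myh6, 0.449 for Ankrd1 and 0.274 for Xirp2, the only one of the 7 below that median.

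**Figure D1:**
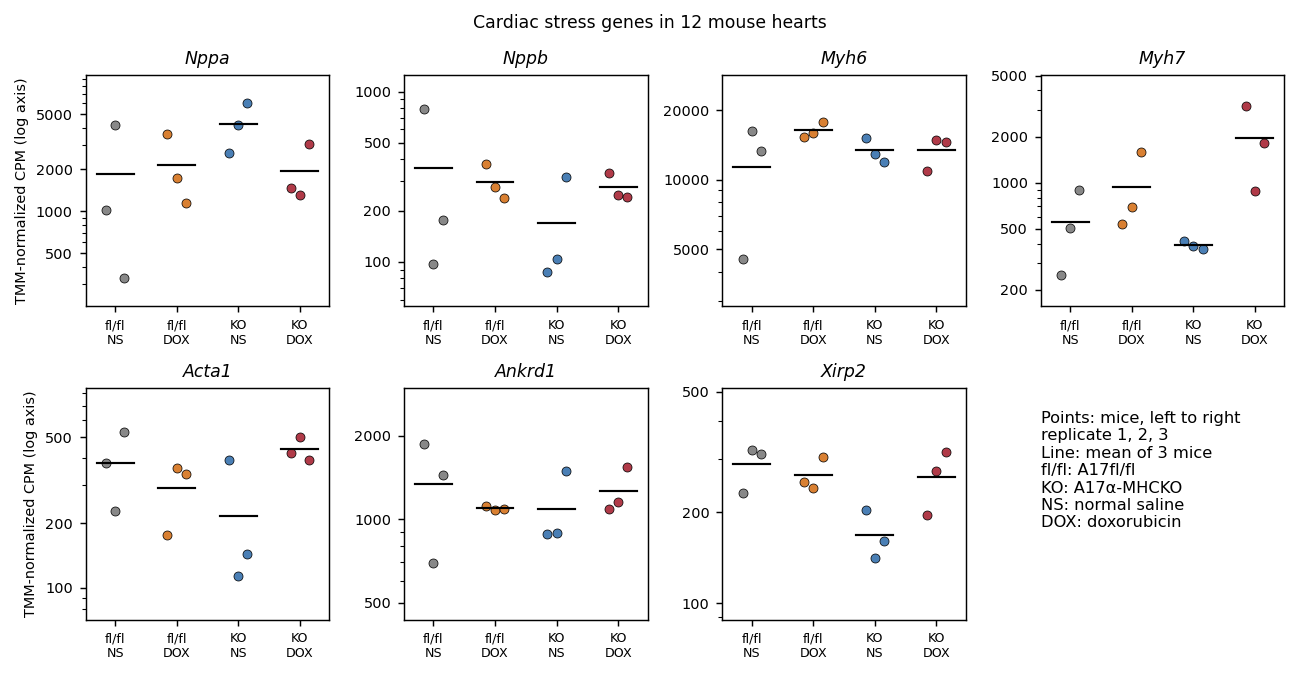
TMM-normalized CPM on log axes for each of the 7 genes in the 12 hearts, with points for mice (replicates 1, 2 and 3 from left to right) and a line for the mean of 3. Myh7 and Acta1 in A17α-MHCKO + DOX lie above all A17α-MHCKO + NS hearts, Xirp2 in A17α-MHCKO + NS lies below all A17fl/fl + NS hearts, and Nppa and Nppb spread widely within A17fl/fl + NS.

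The first question put to these hearts was which of the genes doxorubicin moved in each genotype, and the second whether the knockout differed from the floxed control under either treatment. By edgeR's quasi-likelihood test with Benjamini-Hochberg adjustment over all 16101 genes, 0 of the 7 genes passed an adjusted p under 0.05 in any of 7 contrasts, which were the 4 simple ones, the interaction and the effects of doxorubicin and of genotype over all hearts. The whole table gave little more, with 0.0% of genes called for doxorubicin in either genotype, for the interaction and for doxorubicin over both genotypes, 0.0186% for genotype after normal saline, 0.00621% for genotype after doxorubicin and 0.0248% for genotype over both treatments. At an unadjusted p under 0.05 the counts among the 7 were 0 for doxorubicin in A17fl/fl mice, 3 for doxorubicin in A17α-MHCKO mice, 1 for genotype after normal saline, 0 for genotype after doxorubicin, and 1 each for the interaction and both pooled effects. Over all tested genes the shares at that level were 10.7%, 6.42%, 10.1% and 2.70% in the 4 simple contrasts in this order, 5.99% for the interaction, 10.7% for doxorubicin over both genotypes and 6.65% for genotype over both treatments. DESeq2 and edgeR's likelihood ratio test, run beside it, called Myh7 alone for doxorubicin in A17α-MHCKO mice and for doxorubicin over both genotypes, and limma's voom called none in any contrast. In these contrasts DESeq2 called 0.204% and 0.873% of all genes with an adjusted p, and the likelihood ratio test 0.0745% and 0.503%. The study called a gene where the log2 change passed 1 in size, the unadjusted p was under 0.05, and at least one compared group averaged more than 1 FPKM. By these limits 0 of 7 genes were called for doxorubicin in A17fl/fl mice, where 3.86% of eligible genes were, and 2 of 7 for doxorubicin in A17α-MHCKO mice, where 0.915% were. For genotype none of the 7 was called, with 4.07% of eligible genes called after normal saline and 0.288% after doxorubicin. The median log2 change of the 7 genes was -0.12 after doxorubicin in A17fl/fl mice, against -0.04 over all tested genes, and 0.64 in A17α-MHCKO mice, against 0.00. It was -0.50 for genotype after normal saline, against -0.03, and -0.02 for genotype after doxorubicin, against 0.01. Groups without overlap were seen for 0 of 7 genes with doxorubicin in A17fl/fl mice, against 13.3% of tested genes, and for the other contrasts such counts stand beside the genes concerned. The comparisons share groups, so they are not independent of one another.

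**Figure D2:**
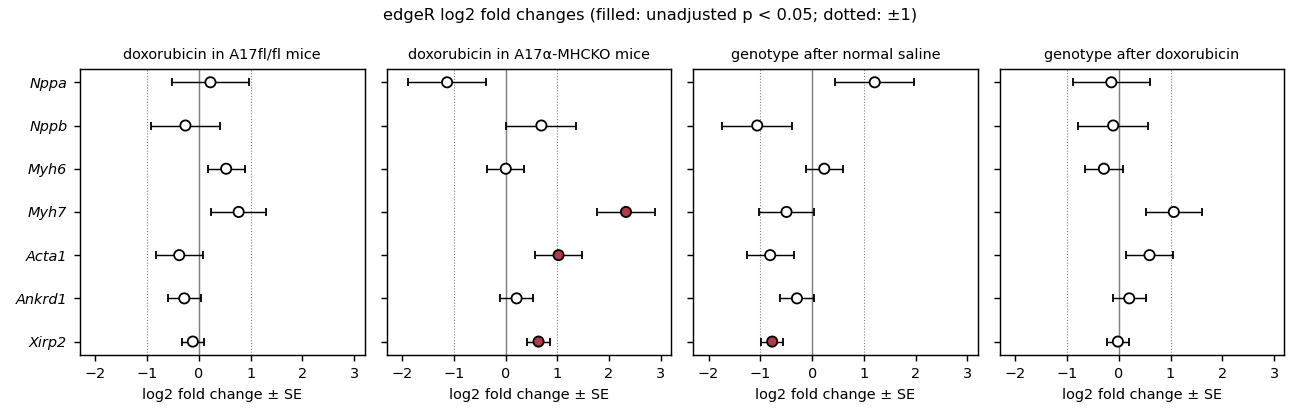
Log2 fold changes with standard errors from the edgeR fit for the 7 genes in the 4 simple contrasts; filled points have an unadjusted p under 0.05 and dotted lines mark a log2 change of 1. Only Myh7, Acta1 and Xirp2 have filled points, Myh7 at 2.33 and Acta1 at 1.02 after doxorubicin in A17α-MHCKO mice and Xirp2 there at 0.64 and at -0.77 for genotype after normal saline.

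Myh7 had the largest log2 change of the 7 genes in the 4 simple contrasts. It was at 249, 506 and 896 CPM in A17fl/fl + NS and at 537, 689 and 1584 CPM in A17fl/fl + DOX. In the knockout it was at 415, 388 and 368 CPM after normal saline and at 3173, 887 and 1814 CPM after doxorubicin. The saline knockout hearts were tightly grouped, all 3 doxorubicin knockout hearts lay above them, and the floxed groups overlapped. Myh7 was thus 5.02-fold higher after doxorubicin in A17α-MHCKO mice, a log2 change of 2.33 (SE 0.56, unadjusted p = 0.00153, edgeR adjusted p = 0.655), and passed the study's limits. It passed them in 23 of 23 settings, with a log2 change of 1.79 without A17α-MHCKO + DOX replicate 1, the highest heart. The adjusted p of DESeq2 was 0.00703 and that of edgeR's likelihood ratio test 0.0437, and over all alternatives it lay between 0.00703 and 1.0. By edgeR's quasi-likelihood test without A17fl/fl + NS replicate 1, whose spread is pooled into this contrast, it was 0.170. In the doxorubicin knockout hearts the range of the ventricular marker sum lay higher and those of the fibroblast and atrial sums lower, as given above, and their part in the Myh7 values was not tested. The log2 change in A17fl/fl mice was 0.77 (SE 0.54, edgeR adjusted p = 0.621), and without A17fl/fl + NS replicate 3 it was 1.31 and passed the study's limits, while without A17fl/fl + DOX replicate 3 it was 0.17. The interaction, by which the knockout's change exceeds the floxed one, was 1.56 on the log2 scale (SE 0.76, edgeR adjusted p = 0.840), and 1.92 (unadjusted p = 0.0170) without A17fl/fl + NS replicate 1. Leaving out replicate 3 of A17fl/fl + NS gave 1.02, and leaving out replicate 3 of A17fl/fl + DOX gave 2.15. Over both genotypes the log2 change was 1.55 (SE 0.39, unadjusted p = 0.00197, edgeR adjusted p = 0.295), with adjusted values between 0.00594 and 0.624 over the alternatives. Between the genotypes after doxorubicin the log2 difference was 1.06 (SE 0.54, edgeR adjusted p = 1.0), with overlapping groups; it passed the study's limits in 5 of 23 settings (DESeq2, the LRT fit of edgeR, and leaving out A17fl/fl + NS replicate 1, A17fl/fl + DOX replicate 3 or A17α-MHCKO + DOX replicate 2), and was 0.53 without A17α-MHCKO + DOX replicate 1.

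Myh6, the more abundant neighbour, passed neither an adjusted p under 0.05 nor the study's limits. Its level was at 4535, 16338 and 13328 CPM in A17fl/fl + NS and at 15398, 15961 and 17870 CPM in A17fl/fl + DOX. The knockout hearts were at 15259, 12962 and 12006 CPM after normal saline and at 10921, 14821 and 14595 CPM after doxorubicin. A17fl/fl + NS replicate 1 was the lowest of all 12 hearts, and the other 11 lay within 10921 and 17870 CPM. The log2 change with doxorubicin was 0.53 in A17fl/fl mice (SE 0.36, edgeR adjusted p = 0.615), 0.14 without replicate 1 of the saline group, and 0.00 in A17α-MHCKO mice (SE 0.36, edgeR adjusted p = 0.999). After doxorubicin all 3 knockout hearts lay below all 3 floxed hearts, as was so in one direction or the other for 14.1% of tested genes in that contrast and 2 of the 7, Myh6 and Acta1, with a log2 difference of -0.29 (SE 0.36, edgeR adjusted p = 1.0).

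The balance of the myosin genes was expressed as the Myh7 share, Myh7 FPKM as a percentage of Myh6 plus Myh7 FPKM. It was 4.18%, 2.40% and 5.07% in A17fl/fl + NS and 2.69%, 3.31% and 6.57% in A17fl/fl + DOX. The knockout values were 2.11%, 2.32% and 2.37% after normal saline and 18.7%, 4.53% and 8.98% after doxorubicin. Every doxorubicin knockout heart thus had a higher share than every saline knockout heart, and Myh6 stayed the main myosin transcript in every heart. The means were 2.27% ± 0.137 and 10.8% ± 7.27 (SD, n = 3 each), a difference of 8.48 percentage points with an exact permutation p of 0.1, two-sided, the smallest that 3 mice against 3 allow. Leaving out A17α-MHCKO + DOX replicate 1, the heart with the highest share, that difference was 4.49 points. The floxed means were 3.88% ± 1.36 and 4.19% ± 2.09 (SD, n = 3 each; exact permutation p = 0.8). Over both genotypes, with labels permuted within each genotype, the doxorubicin hearts averaged 4.40 points more (exact permutation p = 0.065, 0.2 adjusted over 6 contrasts), a difference that missed the threshold. After normal saline the knockout mean was 1.61 points below the floxed mean, and every knockout heart was below every floxed heart. The exact permutation p was 0.1, again the smallest possible, and 0.2 adjusted over 6 contrasts. After doxorubicin the knockout mean was 6.56 points above the floxed mean (exact permutation p = 0.2). Leaving out A17α-MHCKO + DOX replicate 1, the differences for doxorubicin over both genotypes and for genotype after doxorubicin were 2.40 and 2.56 points.

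**Figure D3:**
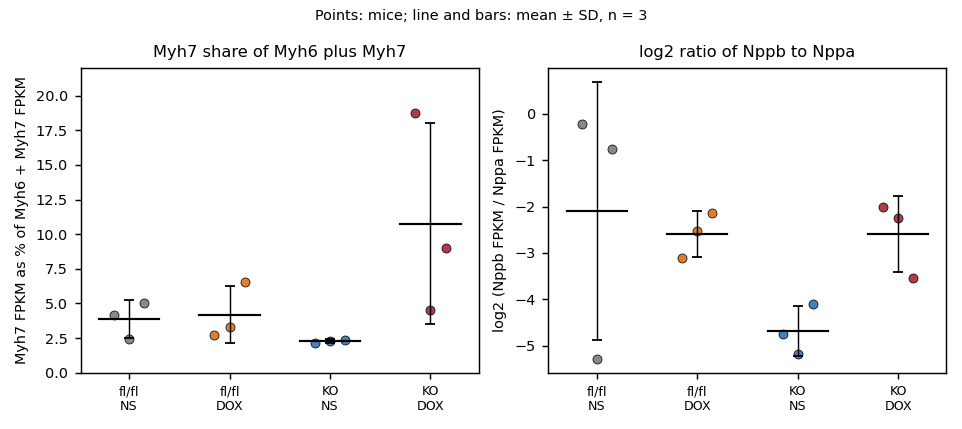
The Myh7 share in percent (left) and the log2 ratio of Nppb to Nppa FPKM (right) in each heart, with the mean and SD of 3 mice. The A17α-MHCKO + NS hearts have a Myh7 share of 2.11% to 2.37% and the A17α-MHCKO + DOX hearts 4.53% to 18.7%, and the log2 ratio spans -5.28 to -0.23 within A17fl/fl + NS alone.

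Acta1 was the other gene that passed the study's limits. Skeletal α-actin was at 379, 228 and 531 CPM in A17fl/fl + NS and at 176, 360 and 337 CPM in A17fl/fl + DOX. Knockout hearts were at 392, 114 and 143 CPM after normal saline and at 422, 504 and 393 CPM after doxorubicin. All 3 doxorubicin knockout hearts lay above the saline knockout hearts, but replicate 1 of the saline group, at 392 CPM, lay just under the lowest of them, at 393 CPM. Groups that do not overlap were found for 16.9% of tested genes in this contrast and for 2 of the 7 genes, Myh7 and Acta1. The log2 change was 1.02 (SE 0.46, unadjusted p = 0.0461, edgeR adjusted p = 0.777). It was 1.78 without that saline heart and 0.71 without A17α-MHCKO + NS replicate 2. The call by the study's limits was lost with the replicate number as a block and without A17fl/fl + DOX replicate 2 or 3, A17α-MHCKO + NS replicate 2 or 3, or any of the A17α-MHCKO + DOX hearts. Among floxed mice the log2 change was -0.38 (SE 0.45, edgeR adjusted p = 0.785), and the interaction was 1.41 (SE 0.64, edgeR adjusted p = 0.828). After doxorubicin the knockout hearts were all above the floxed hearts, at a log2 difference of 0.59 (edgeR adjusted p = 1.0), and after normal saline the difference was -0.81 (edgeR adjusted p = 0.572), which passed the study's limits at -1.07 without A17fl/fl + NS replicate 2 and at -1.56 without A17α-MHCKO + NS replicate 1. Markers of skeletal muscle, the main site of Acta1, were near 0: the myosins Myh1, Myh2 and Myh4 were at 0.247 CPM or less in every heart, and the 8 markers together summed to 1.21 to 7.60 CPM.

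Xirp2 had the least scatter of the 7 genes. It was at 231, 322 and 311 CPM in A17fl/fl + NS and at 252, 240 and 304 CPM in A17fl/fl + DOX. The knockout was at 204, 141 and 160 CPM after normal saline and at 196, 273 and 317 CPM after doxorubicin. The saline knockout hearts were thus the low group, with every heart below every saline floxed heart. Groups without overlap, in one direction or the other, were found for 10.9% of tested genes in this contrast. Of the 7 genes Xirp2 alone had them. The log2 difference for genotype after normal saline was -0.77 (SE 0.21, unadjusted p = 0.00388, edgeR adjusted p = 0.316), and it was -0.91 without A17fl/fl + NS replicate 1 (unadjusted p = 0.000976, edgeR adjusted p = 0.161; 0.0568 to 0.920 over all alternatives). With doxorubicin the log2 change was 0.64 in A17α-MHCKO mice (SE 0.21, unadjusted p = 0.0121, edgeR adjusted p = 0.705) and -0.12 in A17fl/fl mice (SE 0.21, edgeR adjusted p = 0.863), and the interaction was 0.76 (SE 0.30, unadjusted p = 0.0284, edgeR adjusted p = 0.828). After doxorubicin the log2 difference between genotypes was -0.02 (SE 0.21). Over both treatments the difference was -0.39 (unadjusted p = 0.0232, edgeR adjusted p = 0.737). None of these log2 values reached 1 in size, so Xirp2 was not called by the study's limits.

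Ankrd1, the stretch-responsive titin partner, was at 1861, 696 and 1451 CPM in A17fl/fl + NS and at 1121, 1080 and 1093 CPM in A17fl/fl + DOX. Hearts of A17α-MHCKO mice were at 884, 891 and 1494 CPM after normal saline and at 1091, 1152 and 1548 CPM after doxorubicin. The floxed doxorubicin hearts were nearly identical and lay inside the range of the saline hearts. The log2 change with doxorubicin was -0.28 in A17fl/fl mice (SE 0.32, edgeR adjusted p = 0.773) and 0.21 in A17α-MHCKO mice (SE 0.32, edgeR adjusted p = 0.931), and no contrast gave an unadjusted p under 0.05. Genotype differences were -0.29 after normal saline and 0.20 after doxorubicin on the log2 scale (SE 0.32 each). Without A17fl/fl + NS replicate 1, the highest heart for this gene, the change in A17fl/fl mice was 0.03.

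Nppa passed neither an adjusted p under 0.05 nor the study's limits, and spread most within the saline floxed group. It was at 1020, 4199 and 331 CPM in A17fl/fl + NS and at 3580, 1740 and 1153 CPM in A17fl/fl + DOX. Knockout hearts lay at 2610, 4185 and 6024 CPM after normal saline and at 1478, 1310 and 3072 CPM after doxorubicin. The 3 highest hearts were saline hearts, and all groups that share a genotype or a treatment overlapped. The log2 change with doxorubicin was 0.22 in A17fl/fl mice (SE 0.75, edgeR adjusted p = 0.932) and -1.13 in A17α-MHCKO mice (SE 0.76, edgeR adjusted p = 0.845). Fitted on the 2 knockout groups alone, the latter value was -1.14 (unadjusted p = 0.0169) and passed the study's limits. In A17fl/fl mice it was 1.68 without replicate 2 of the saline group, which passed the limits, and -0.35 without replicate 1 of the doxorubicin group. The genotype difference after normal saline was 1.21 (SE 0.76, edgeR adjusted p = 0.611); it was 2.66 without A17fl/fl + NS replicate 2 and 2.10 by limma's voom with a quality weight for each library, and passed the limits in both. Its adjusted p lay between 0.0513 and 0.920 over all alternatives. After doxorubicin it was -0.14 (SE 0.75).

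Atrial markers moved with Nppa. The 2 hearts with the lowest Nppa, A17fl/fl + NS replicates 3 and 1, were those with summed atrial markers of 1.75 and 1.56 CPM, and Myl7, the atrial regulatory myosin light chain, was at 0.0626 and 0.0 CPM there. In the other 10 hearts Myl7 was at 125 to 1019 CPM. Over those 10 the CPM of Nppa spanned 5.22-fold, from 1153 to 6024, and its ratio to Myl7 spanned 2.86-fold, from 4.12 to 11.8 with a median of 6.87. By group the summed atrial markers ran from 1.56 to 3072 CPM in A17fl/fl + NS, 533 to 1206 in A17fl/fl + DOX, 1254 to 2337 in A17α-MHCKO + NS and 326 to 918 in A17α-MHCKO + DOX. All 4 atrial markers had negative log2 changes with doxorubicin in A17α-MHCKO mice, with a median of -1.71, and 1 of them had an unadjusted p under 0.05. Their part in the Nppa values was not tested, and in these bulk samples fewer atrial cells and less RNA per cell cannot be told apart.

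**Figure D4:**
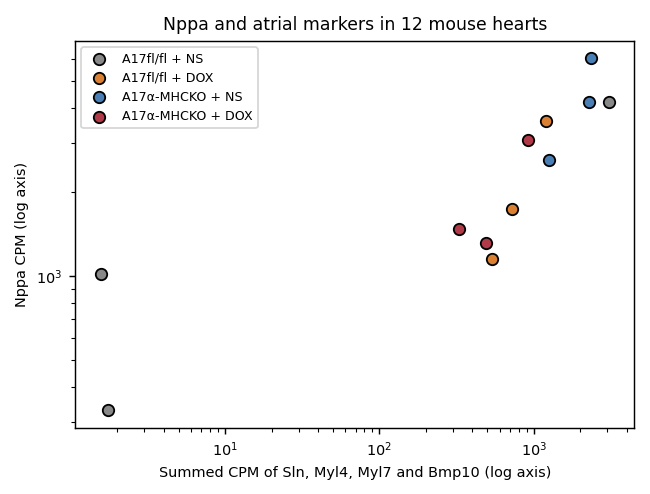
CPM of Nppa against the summed CPM of Sln, Myl4, Myl7 and Bmp10 in each heart, both on log axes, with groups by colour. A17fl/fl + NS replicates 1 and 3 lie alone at 1.56 and 1.75 CPM of atrial markers, and in the other 10 hearts high Nppa goes with high atrial markers.

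Nppb followed another order of hearts than Nppa. It was at 787, 97.2 and 177 CPM in A17fl/fl + NS and at 374, 274 and 237 CPM in A17fl/fl + DOX. Among knockout hearts it was at 87.7, 105 and 316 CPM after normal saline and at 333, 249 and 239 CPM after doxorubicin. In each saline group 2 hearts were below every doxorubicin heart and 1 heart was high. The log2 change with doxorubicin was -0.26 in A17fl/fl mice (SE 0.67, edgeR adjusted p = 0.910) and 0.69 in A17α-MHCKO mice (SE 0.67, edgeR adjusted p = 0.886). Without A17fl/fl + NS replicate 1, the library that stood apart, the value in A17fl/fl mice turned to 1.10 (SE 0.49, unadjusted p = 0.0460, edgeR adjusted p = 0.485; 0.485 to 0.987 over all alternatives) and passed the study's limits, and the value over both genotypes went from 0.22 to 0.90 (unadjusted p = 0.0181). The genotype difference after normal saline was -1.06 (SE 0.68, edgeR adjusted p = 0.615), 0.30 without that library, and -1.51 and -1.86, past the study's limits, without A17fl/fl + NS replicate 2 and A17α-MHCKO + NS replicate 3. After doxorubicin it was -0.11 (SE 0.67).

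The log2 ratio of Nppb to Nppa, per length, set the neighbouring peptide genes against each other within a heart. It was -0.23, -5.28 and -0.76 in A17fl/fl + NS and -3.11, -2.52 and -2.14 in A17fl/fl + DOX. In the knockout it was -4.75, -5.17 and -4.10 after normal saline and -2.00, -2.25 and -3.54 after doxorubicin. Nppa was the more abundant transcript in all 12 hearts, and in the knockout every doxorubicin heart had a higher ratio than every saline heart. The summed atrial markers were at 1254 to 2337 CPM in those saline hearts and 326 to 918 CPM in those doxorubicin hearts. Their part in the ratio was not tested. The knockout means were -4.68 ± 0.538 and -2.60 ± 0.824 (SD, n = 3 each), a difference of 2.08 with an exact permutation p of 0.1, two-sided, the smallest possible with 3 mice against 3, and 0.6 after adjustment over 6 contrasts. The floxed difference was -0.50 (exact permutation p = 0.9), and A17fl/fl + NS replicates 1 and 3, the hearts without atrial markers, had the highest ratios of all.

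The 7 genes were also set among further genes of their pathways, and in these lists 0 genes passed an edgeR adjusted p under 0.05 in any simple contrast. Of 14 genes of the natriuretic peptide system, 12 were tested, including Nppa and Nppb; Nppc, the C-type peptide, and Ostn, a decoy ligand of the clearance receptor, were at 0.252 CPM or less. After doxorubicin 0 of 12 had an unadjusted p under 0.05 in either direction in either genotype. Their median log2 change was 0.20 in A17fl/fl mice and -0.13 in A17α-MHCKO mice. The share of all tested genes with such a p was 4.11% higher and 6.58% lower in A17fl/fl mice, and 3.97% higher and 2.44% lower in A17α-MHCKO mice. Between the genotypes after normal saline 1 was higher and 1 lower, against 3.61% and 6.53% of all tested genes. Pde9a, a phosphodiesterase that breaks down the cyclic GMP made by natriuretic peptide receptors, was higher in the knockout (log2 difference 0.42, SE 0.19, unadjusted p = 0.0457, edgeR adjusted p = 0.479). Furin, a protease that cleaves the B-type precursor, was lower (log2 difference -0.69, SE 0.24, unadjusted p = 0.0146, edgeR adjusted p = 0.361). After doxorubicin 0 of 12 differed between genotypes at that level, where 1.52% of all tested genes were higher and 1.19% lower. Once A17fl/fl + NS replicate 1 was dropped, 0 of 12 had such a p for genotype after normal saline, and 1 was higher and 1 lower for doxorubicin in A17fl/fl mice. With that library dropped, the shares of all 16406 genes then tested were 4.63% higher and 5.60% lower for doxorubicin in A17fl/fl mice, 6.59% and 4.88% for doxorubicin in A17α-MHCKO mice and 4.58% and 5.65% for genotype after normal saline. Npr1, which encodes the receptor that answers both peptides, had a log2 difference of 0.33 (edgeR adjusted p = 0.569) after normal saline.

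Among 14 myosin and fetal contractile isoform genes, which include Myh6, Myh7 and Acta1, all were tested. After doxorubicin 2 were higher at an unadjusted p under 0.05 in A17fl/fl mice, against 4.11% of all tested genes, and 6 in A17α-MHCKO mice, against 3.97%. In both 0 were lower, and the median log2 changes were 0.31 and 0.46. The genes were Actc1 and Myh7b in A17fl/fl mice and Myh7, Acta1, Actc1, Myl2, Myl3 and Tnnt2 in A17α-MHCKO mice. Actc1, the cardiac α-actin of the adult heart, was at 3234 to 7896 CPM in A17fl/fl + NS and 9619 to 11113 CPM in A17fl/fl + DOX, a log2 change of 1.02 (unadjusted p = 0.00600, edgeR adjusted p = 0.358). In A17α-MHCKO mice Actc1 was at 3487 to 6018 CPM after normal saline and 8335 to 10235 CPM after doxorubicin, a log2 change of 0.99 (unadjusted p = 0.00725, edgeR adjusted p = 0.697). All doxorubicin hearts thus lay above all saline hearts of their genotype for cardiac actin, and for skeletal actin they did so in the knockout; whether the actin genes differ in this was not tested. Myl2, the ventricular regulatory light chain, had a log2 change of 0.95 in A17α-MHCKO mice (unadjusted p = 0.00542, edgeR adjusted p = 0.695) and 0.55 in A17fl/fl mice (edgeR adjusted p = 0.504). Mhrt, a noncoding RNA transcribed antisense to Myh7, had a log2 difference of 0.33 for genotype after normal saline (edgeR adjusted p = 0.748) and ran from 10.6 to 31.2 CPM over the 12 hearts. Between genotypes 0 of 14 had an unadjusted p under 0.05 under either treatment. Leaving out A17fl/fl + NS replicate 1, the counts were 2 higher and 0 lower with doxorubicin in A17fl/fl mice and 7 higher and 1 lower in A17α-MHCKO mice, where the share of all genes that were higher was then 6.59% in place of 3.97%. The ventricular marker sum, at 23950 to 29830 CPM and 29470 to 34170 CPM in the knockout groups, had the higher range after doxorubicin too, and its part in these counts was not tested. Tnnt2, Tnni3, Myl2 and Myl3 are in both lists, so the sum is not independent of these counts. Of the 10 ventricular markers, 7 had positive and 3 negative log2 changes in that contrast.

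A further list held 14 muscle ankyrin repeat and Xin proteins and their Z-disc partners, which include Ankrd1 and Xirp2. After doxorubicin in A17α-MHCKO mice 4 were higher and 0 lower at an unadjusted p under 0.05. Over all tested genes 3.97% were higher and 2.44% lower in that contrast. Of the 14 log2 values 13 were positive, with a median of 0.34 against 0.00 over all tested genes. In A17fl/fl mice 1 was higher and 1 lower, against 4.11% and 6.58% of all tested genes. The list's median there was 0.19, against -0.04 over all tested genes. Tcap, the titin cap of the Z-disc, had a log2 change of 1.16 in A17α-MHCKO mice (unadjusted p = 0.00504, edgeR adjusted p = 0.695), and Fhl1, a titin-binding LIM protein, 0.59 (unadjusted p = 0.00581, edgeR adjusted p = 0.695). Fhl2, another LIM protein of the sarcomere, was the gene that was higher in A17fl/fl mice, at 0.94 (unadjusted p = 0.00275, edgeR adjusted p = 0.334). Between the genotypes after normal saline 1 was higher and 5 were lower, against 3.61% and 6.53% of all tested genes, with a median of -0.30. The lower genes were Xirp2, Fhl1, Lmcd1, Ankrd2 and Ankrd23, and Fhl2 was the higher one. Ankrd23, a relative of Ankrd1, differed by -0.66 (unadjusted p = 0.0114, edgeR adjusted p = 0.344), while Ankrd2 rested on 5.37 CPM or less. Without A17fl/fl + NS replicate 1 the counts were 0 higher and 7 lower for genotype after normal saline, beside 5.65% of all genes lower. They were 7 higher and 0 lower with doxorubicin in A17α-MHCKO mice, beside the same 6.59% of all genes higher. Here too the part of the ventricular and fibroblast marker sums was not tested, and Actn2 is in both this list and the ventricular markers. After doxorubicin 1 gene was lower in the knockout, the actin crosslinker Flnc, at -0.39 (unadjusted p = 0.0437, edgeR adjusted p = 1.0), where 1.19% of all tested genes were lower.

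**Figure D5:**
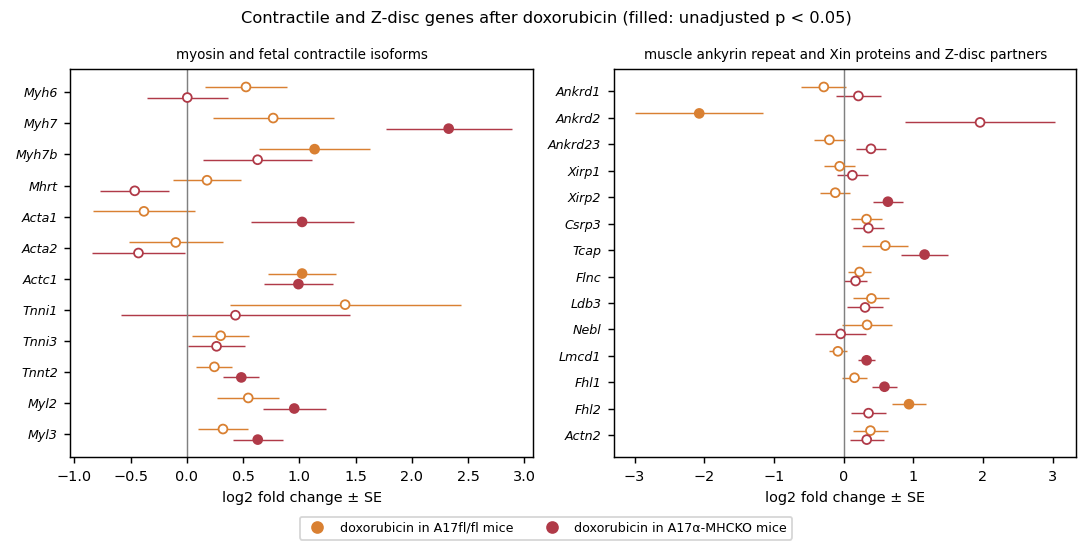
Log2 fold changes with standard errors after doxorubicin in A17fl/fl mice (orange) and A17α-MHCKO mice (red) for the myosin and contractile isoform genes (left, without the atrial Myl4 and Myl7) and the ankyrin repeat, Xin and Z-disc genes (right); filled points have an unadjusted p under 0.05. Actc1 is filled for both genotypes, at 1.02 and 0.99, and Myh7 at 2.33 is the largest value for A17α-MHCKO mice.

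Among 14 tested genes of a list of other stress and hypertrophy genes, 5 were lower and 0 higher for genotype after normal saline, with a median log2 difference of -0.43, and 3 were higher and 0 lower after doxorubicin in A17α-MHCKO mice, with a median of 0.11. Over all tested genes the former contrast had 6.53% lower and 3.61% higher, with a median of -0.03. The latter had 3.97% higher and 2.44% lower, with a median of 0.00. Hspb7, a small heat shock protein of the cardiomyocyte, was at 1392 to 2514 CPM in A17fl/fl + NS, 1056 to 1516 in A17α-MHCKO + NS and 2149 to 2483 in A17α-MHCKO + DOX, with log2 differences of -0.74 (unadjusted p = 0.00647, edgeR adjusted p = 0.323) for genotype after normal saline and 0.93 (unadjusted p = 0.00152, edgeR adjusted p = 0.655) after doxorubicin. Cryab, the chaperone αB-crystallin, had corresponding values of -0.61 (unadjusted p = 0.00623, edgeR adjusted p = 0.323) and 0.59 (unadjusted p = 0.00786, edgeR adjusted p = 0.705). Nmrk2, a nicotinamide riboside kinase induced in failing hearts, had a log2 change of 1.41 with doxorubicin in A17α-MHCKO mice (unadjusted p = 0.00244, edgeR adjusted p = 0.657). With doxorubicin in A17fl/fl mice, where 6.58% of all tested genes were lower, 2 of the 14 were. These were Gdf15 at -2.02 and Uck2 at -1.15 (edgeR adjusted p = 0.421 and 0.444). In A17fl/fl + NS Gdf15 had a median of 2.19 and a highest value of 14.3 CPM. Uck2 had a median of 42.5 and a highest value of 189 CPM in that group. The list's median for doxorubicin in A17fl/fl mice was -0.06, against -0.04 over all tested genes. Without A17fl/fl + NS replicate 1, 2 were higher and 0 lower there, and for genotype after normal saline 0 were higher and 4 lower, with a median of -0.15. After doxorubicin 1 differed between genotypes, Enah, an actin regulator, at -0.66 (unadjusted p = 0.00447, edgeR adjusted p = 1.0), where 1.19% of all tested genes were lower.

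Of 18 transcriptional regulators of these genes, 1 was higher and 0 lower after doxorubicin in A17fl/fl mice and 0 higher and 1 lower in A17α-MHCKO mice, with medians of 0.13 and -0.09. These counts lay near the shares over all tested genes. Those shares were 4.11% higher and 6.58% lower in A17fl/fl mice, and 3.97% and 2.44% in A17α-MHCKO mice. Gata4, whose protein binds GATA sites such as the match in the Nppb window, was at 42.1 to 63.6 CPM in A17fl/fl + NS and 78.6 to 114 CPM in A17fl/fl + DOX, a log2 change of 0.90 (unadjusted p = 0.00207, edgeR adjusted p = 0.334). Between the genotypes after doxorubicin Gata4 was lower in the knockout, at -0.50 (unadjusted p = 0.0478, edgeR adjusted p = 1.0). Nfatc3, which relays calcineurin signals, was the gene that was lower in A17α-MHCKO mice, at -0.35 (unadjusted p = 0.0196, edgeR adjusted p = 0.729). After normal saline 2 were higher in the knockout and 0 lower, against 3.61% and 6.53% of all tested genes. The 2 were Thra, the thyroid hormone receptor that favours Myh6, at 0.60 (unadjusted p = 0.0266, edgeR adjusted p = 0.427), and Hdac9, a repressor of hypertrophic genes, at 0.57 (unadjusted p = 0.0261, edgeR adjusted p = 0.424). Without A17fl/fl + NS replicate 1 the counts there were 0 higher and 1 lower. Of 8 immediate-early genes, which respond quickly to handling and stretch, 3 were lower with doxorubicin in A17fl/fl mice and 4 were lower for genotype after normal saline. Over all tested genes 6.58% and 6.53% were lower. In both contrasts 0 of the 8 were higher, and without A17fl/fl + NS replicate 1 the counts of these genes were 1 and 2 lower, and 2 and 0 higher. Their summed level was 245 to 735 CPM in A17fl/fl + NS against 167 to 269 CPM over the other 3 groups, and their part in the values above was not tested.

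The genes whose log2 CPM over the 12 hearts was most like that of each member were found by Pearson's correlation, which is given as a description of libraries that share groups and composition. For Nppa they were Rab3b, Mt3 and Gm13054, all with r = 0.960. Gm13054 is annotated antisense to Nppa, and since strand use in counting is not stated, its reads and those of Nppa cannot be told apart. Over the 11 hearts without A17fl/fl + NS replicate 1 the nearest to Nppa were Nrk, the natriuretic peptide clearance receptor gene Npr3 and Mlana, with r = 0.977, 0.972 and 0.971. For Nppb the nearest were Wdr20, Sirpb1a and Tmem88b, with r = 0.953, 0.911 and 0.888, of which Wdr20 was also first over 11 hearts with r = 0.923, followed there by Ctps and 2010111I01Rik. For Myh6, Phtf2, Cand2 and Ppm1l had r = 0.980, 0.976 and 0.974 over 12 hearts and 0.879, 0.863 and 0.827 over 11, where Tecpr2, Glg1 and Myo18b were nearest. For Myh7, Tnip3, Hdhd5 and Ndufb3 had r = 0.914, 0.909 and 0.904, and over 11 hearts Get4 was nearest with r = 0.958, ahead of Med7 and Hdhd5.

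For Acta1 the nearest genes were Des, which encodes the muscle intermediate filament desmin, Aldoa and Dhps, with r = 0.876, 0.876 and 0.875, and over 11 hearts Sirt4, Hsdl2 and Ipo5. For Ankrd1 they were Lime1, F5 and Ntpcr, with r = 0.896, 0.881 and 0.878, and over 11 hearts Slc6a9, Clec1b and Plek. For Xirp2 they were Cast, Raph1 and Usp22, with r = 0.911, 0.861 and 0.838, and Cast and Raph1 stayed nearest over 11 hearts, with r = 0.912 and 0.908 and Haghl after them. Among the 7 genes themselves the highest correlation over 12 hearts was 0.765, between Nppb and Ankrd1, which was 0.651 over 11, and the lowest was -0.770, between Nppa and Acta1, which was -0.766 over 11. Nppa and Nppb had r = -0.243, and Myh6 and Myh7 had r = 0.361, which was -0.146 over 11 hearts.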

How the data were processed

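RNA-seq of 12 mouse hearts, 3 libraries per group, was analysed. The paper describes a stranded paired-end mRNA kit and fragment counting by StringTie, and the submitters' processing notes name CASAVA 1.8, HISAT2, SAMtools 1.3.1, edgeR and GRCm39. The deposited table holds an unnormalized count and an FPKM per gene and library, the latter scaled by the authors to gene length and library total, and 0 value columns were left unused. Strand use in counting is not given in the sources used here, so overlapping antisense genes may share reads. Apart from strand, paralogs such as Myh6 and Myh7 or Acta1 and Actc1 are alike in sequence and may share reads too. P-values of the main edgeR fit rest on the spread between libraries of the same group, pooled over the 4 groups. A17fl/fl + NS replicate 1 thus enters the p-values of every contrast, also those between knockout groups. The labels name the 3 libraries of a group as separate samples.

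Counts were tested in R 4.3.3 with edgeR 4.0.16 (filterByExpr, TMM, glmQLFit over 4 group means, glmQLFTest, Benjamini-Hochberg adjustment). The code was tried on simulated counts with a single dispersion for all genes and no outlying library. That trial does not measure power or error rates in these hearts. Standard errors are the log2 change over the root of its F value. Alternatives were RLE and upper-quartile scaling, DESeq2 1.42.0, limma 3.58.1 voom with quality weights, a likelihood ratio test, other filters, 2 groups alone, a replicate block, CPM for FPKM and each library left out. Ratios had two-sided exact permutation tests. Library totals were 15950717 to 21725076 counts. The 7 genes, the further lists and the markers were chosen with earlier results of these data known; list counts without A17fl/fl + NS replicate 1 were added after seeing the data. Named from each list were up to 3 genes with the smallest p per simple contrast, and for each of the 7 genes the 3 nearest in log2 CPM (prior count 2, mean CPM of at least 1). Other genes listed as passing a level were named after their values were seen.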

Additional observations from a re-analysis of the deposited data

Results flagged for a closer look

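For Acta1 and Ankrd1 every doxorubicin heart was below the mean of the saline hearts in A17fl/fl mice and above it in A17α-MHCKO mice. The share of all tested genes with such a pattern was not counted, so it does not set these genes apart from the rest. The smallest such gap was that of Ankrd1 in A17α-MHCKO + DOX replicate 1, at 1091 against 1090 CPM. None of the 4 changes with doxorubicin had an edgeR adjusted p under 0.05: log2 values were -0.38 and 1.02 for Acta1 (edgeR adjusted p = 0.785 and 0.777) and -0.28 and 0.21 for Ankrd1 (edgeR adjusted p = 0.773 and 0.931), of which Acta1 in A17α-MHCKO mice passed the study's limits. The test of the difference itself, the interaction in edgeR's quasi-likelihood fit, gave a log2 value of 1.41 for Acta1 (unadjusted p = 0.0507, adjusted p = 0.828; adjusted values of 0.266 to 0.984 over the alternatives) and 0.50 for Ankrd1 (unadjusted p = 0.297, adjusted p = 0.851; 0.319 to 1.0 over the alternatives). For Ankrd1 the direction in A17fl/fl mice rested on A17fl/fl + NS replicate 1, without which the change there was 0.03, and for Acta1 the change there was -0.0588 without A17fl/fl + NS replicate 3. Groups of 3 are too small for a test of single outlying hearts, so none was made.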

How the results depend on the processing

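By edgeR's quasi-likelihood test 0 of the 7 genes passed an adjusted p under 0.05, and DESeq2 and the likelihood ratio test each called 1, Myh7, for doxorubicin in A17α-MHCKO mice and over both genotypes. By the study's limits the count was 1 in place of 2 with a replicate block for doxorubicin in A17α-MHCKO mice, 1 in place of 0 with voom for genotype after normal saline, and 1 in place of 0 with DESeq2 or the likelihood ratio test for genotype after doxorubicin, where 0.854%, 2.18%, 0.291% and 0.323% of eligible genes passed. With each library left out in turn it ran from 0 to 1 for doxorubicin in A17fl/fl mice, 1 to 2 in A17α-MHCKO mice, 0 to 3 for genotype after normal saline and 0 to 1 after doxorubicin; the 3 came without A17fl/fl + NS replicate 2, when 8.89% of eligible genes passed in place of 4.07%. The shares of eligible genes ran from 1.77% to 8.29%, 0.611% to 1.28%, 2.18% to 8.89% and 0.244% to 0.556% in these contrasts. The Myh7 share difference in A17fl/fl mice ran from -0.879 to 1.06 points, and the log2 ratio of Nppb to Nppa from -2.10 to 0.43 for doxorubicin in A17fl/fl mice, -0.30 to 0.46 for genotype after doxorubicin and -0.0082 to 1.26 for doxorubicin over both genotypes.

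Of 768 alternative log2 values of single genes 33 changed sign, 0 of them with an adjusted p under 0.05. With voom these were Nppb at 0.89 for doxorubicin in A17fl/fl mice, 0.0894 for genotype after normal saline and -0.30 for the interaction, Ankrd1 at 0.045 for genotype after normal saline and Xirp2 at 0.079 for genotype after doxorubicin. With a replicate block Nppb was at 0.0401 for doxorubicin in A17fl/fl mice. Myh6 for doxorubicin in A17α-MHCKO mice, near 0 throughout, was at -0.00184 with RLE scaling, -0.00813 with DESeq2, -0.00710 without a filter, -0.00913 with 10 counts in every library, -0.0437 with a replicate block and -0.00246 from 2 groups alone. With libraries left out, doxorubicin in A17fl/fl mice gave -0.35 to 1.68 for Nppa, -0.71 to 1.10 for Nppb and -0.59 to 0.0260 for Ankrd1, and in A17α-MHCKO mice -0.0771 to 0.13 for Myh6. Genotype after normal saline gave -1.86 to 0.30 for Nppb, -0.15 to 0.59 for Myh6, -0.85 to 0.0488 for Myh7 and -0.60 to 0.0171 for Ankrd1. Genotype after doxorubicin gave -0.63 to 0.43 for Nppa, -0.27 to 0.10 for Nppb and -0.17 to 0.16 for Xirp2, and the interaction -0.41 to 1.75 for Nppb. The cause was not tested.

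Deviations of same-numbered libraries correlated at -0.104 to 0.219 (median 0.00414), and those of other libraries at -0.265 to 0.322. These values showed no sign of pairing by number, but with 3 libraries per group they cannot exclude it. With the replicate block 0 of 7 genes passed an adjusted p under 0.05, and Myh7 for doxorubicin in A17α-MHCKO mice was at 2.28.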
